A study of Mus musculus with 6 samples.

Results

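Thyroid hormone transport and response was followed through 8 genes, Slco1c1, Dio2, Dio3, Thra, Thrb, Crym, Klf9 and Hr, taken by name from the 23079 genes of 1 count table. The genes were picked by someone who knew how these libraries differ, so their changes between the groups are described here and carry no p-value. RNA came from the ventral tegmental area and the pars compacta of the substantia nigra of C57BL/6 mice aged 4 months, dissected from 1 mm slices. The mice were of the Dat bacTRAP line, in which the dopamine transporter locus drives a tagged ribosomal protein. The labels call the material dopaminergic neurons and total RNA, and a ribosome capture step is not given in the sources used here. There were 3 libraries after adeno-associated virus of serotype 1 carrying a short hairpin RNA against Satb1 with EGFP (knockdown) and 3 after the same virus with a scrambled hairpin and EGFP (control). The sample titles speak of siRNA. The labels give 3 mice and 6 libraries and do not link one to the other, so errors and p-values rest on the spread among libraries, which may be technical.

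Thyroxine, the main circulating thyroid hormone, crosses membranes through transporters, and cells of the brain convert it to the active hormone triiodothyronine. In the brain the conversion is mostly the work of the type 2 deiodinase in astrocytes and tanycytes, and neurons carry the type 3 deiodinase, which inactivates both forms. Triiodothyronine binds nuclear receptors that sit on DNA as dimers with retinoid X receptors, and exchanges corepressors for coactivators at genes such as Klf9 and Hr.

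The deposited counts summed to between 147486754 and 164554674 in knockdown libraries and between 160792736 and 170351145 in control libraries. After scaling by the trimmed mean of M-values (TMM), 1 count was worth between 0.00557 and 0.00672 CPM, a unit that puts libraries of different depth on one scale. Satb1 stood at 82.9, 166 and 61.2 CPM in knockdown libraries 1 to 3, against 351, 349.6 and 319.8 CPM in control libraries 1 to 3. Markers of dopamine neurons were abundant in every library, with a summed level of 7870 to 9961 CPM over 8 genes in knockdown libraries and 11705 to 12885 CPM in control libraries, and 5 of the 8 were called lower. Other cells were present too. The 8 oligodendrocyte markers summed to 581 to 659 CPM in knockdown libraries and 372 to 425 CPM in control libraries, with 7 called higher. Of all tested genes, 8.48% were called higher and 12.6% lower. The 8 markers of other neurons summed to 262 to 390 CPM in knockdown libraries and 246 to 315 CPM in control libraries, with 1 called higher. The 8 astrocyte markers summed to 240.4 to 246.8 CPM in knockdown libraries and 259.6 to 308 CPM in control libraries. That sum was carried by the glutamate transporter gene Slc1a2, which was called lower, while Aqp4 and S100b were called higher and 7 of the 8 had a positive log2 fold change. Such bulk libraries cannot tell fewer cells of a type from less RNA per cell.

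The receptor alpha gene was far more abundant than the other 7. Per kilobase of exon, the order in control libraries was Thra, Klf9, Thrb, Hr, Dio2, Slco1c1, Crym and Dio3. The level of Thra was 62.8 ± 2.97 CPM per kb in knockdown libraries and 66.9 ± 3.05 in control libraries (SD, n = 3 each), which puts the gene's CPM above that of 96.4% of the 16766 tested genes in controls. Klf9 stood at 8.10 ± 0.335 CPM per kb in knockdown libraries and 9.43 ± 0.557 in control libraries. Thrb stood at 1.92 ± 0.150 and Hr at 1.63 ± 0.112 CPM per kb in knockdown libraries, against 1.93 ± 0.273 for Thrb and 1.10 ± 0.0846 for Hr in control libraries. The library ranges of neighbours in this order did not overlap from Thra down to Dio2. In control libraries Dio2, Slco1c1 and Crym each overlapped the next gene in the order. In knockdown libraries the order was the same, and only Crym and Dio3 overlapped. With coding length in place of exon length, Dio2 and Hr changed places, at 2.28 and 2.10 CPM per kb in controls.

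**Figure D1:**
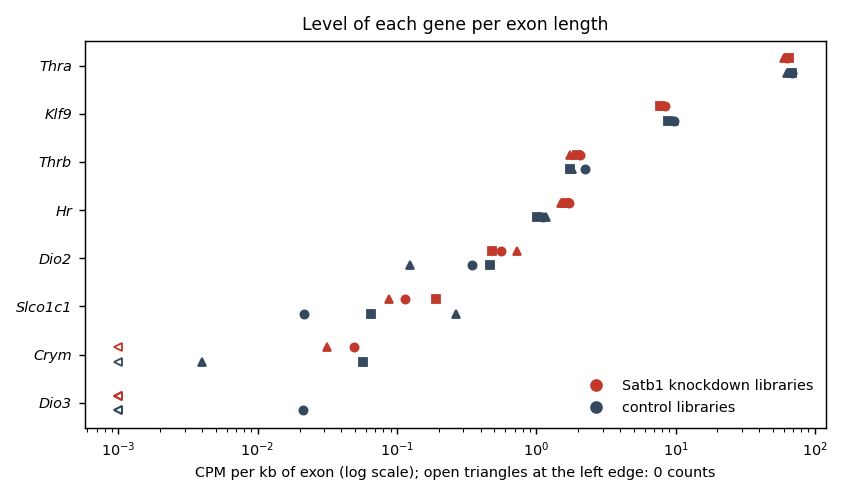
Level of each of the 8 genes in CPM per kb of exon on a log scale, with knockdown libraries in red above control libraries in dark grey; circle, square and triangle are libraries 1 to 3. Thra lies between 59.7 and 69.0 CPM per kb in the 6 libraries, while Slco1c1, Crym and Dio3 lie below 0.3 CPM per kb.

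Hr was the 1 gene of the 8 called in the fit across all genes, where 21.1% of the tested genes were called, 8.48% higher and 12.6% lower. Since the 8 were chosen with this contrast known, nothing is read from that count. Of the 8, 7 passed the filter on low counts and Dio3 did not. The groups did not overlap for Dio2, Hr and Klf9. Among all tested genes the CPM values of the groups did not overlap for 38.7%, with knockdown above control for 17.9% and below it for 20.8%.

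**Figure D2:**
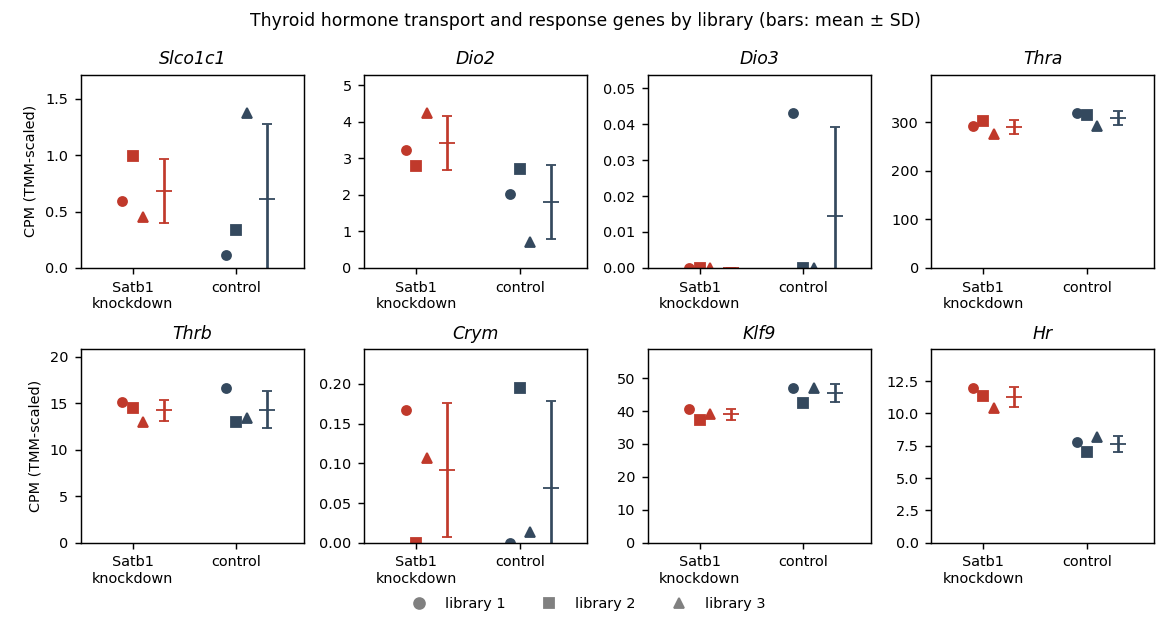
CPM of each of the 8 genes by library, knockdown in red on the left and control in dark grey on the right of each panel; circle, square and triangle are libraries 1 to 3, and the bar is the mean ± SD, cut at 0. Hr and Dio2 are higher in all 3 knockdown libraries than in all 3 control libraries, Klf9 is lower in all 3, and the other genes overlap.

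Transport of the hormone was represented by Slco1c1 (gene identifier 58807; chromosome 6, 141524368 to 141570177, plus strand, GRCm38), which encodes OATP1C1, a thyroxine carrier of brain capillaries, choroid plexus and astrocytes. Its level was 0.596, 0.996 and 0.452 CPM in knockdown libraries 1 to 3, against 0.111, 0.338 and 1.37 CPM in control libraries 1 to 3. The control libraries held both the lowest and the highest value, and they differed among themselves by 12.4-fold where the knockdown libraries differed by 2.20-fold. The 18 counts of control library 1 have an exact Poisson interval (95%) of 0.0656 to 0.175 CPM and the 204 counts of control library 3 one of 1.19 to 1.57 CPM, so the spread among controls exceeded counting error, which is all that such intervals cover. The log2 fold change was 0.17 ± 0.79 (SE). Leaving out control library 3 made it 1.60, and it was below 0 on leaving out knockdown library 2 or control library 1 or 2. The 8 endothelial markers summed to 19.1, 22.8 and 21.3 CPM in knockdown libraries 1 to 3 and to 15.7, 17.2 and 17.2 CPM in control libraries 1 to 3, a sum carried by the glucose transporter gene Slc2a1, and 1 of the 8, Cdh5, was called higher. Of the less abundant markers, Tek stood at 0.964, 0.163 and 0.666 CPM in knockdown libraries 1 to 3 and at 0.184, 0.682 and 0.961 CPM in control libraries 1 to 3. Tek had the same order over the controls as Slco1c1, but it was lowest in knockdown library 2, where Slco1c1 was highest. None of the other endothelial markers had the order of Slco1c1 over the controls. Of the astrocyte markers, Aldh1l1 (0.990, 1.91 and 2.35 CPM in control libraries 1 to 3) and Slc1a2 (217, 258 and 260 CPM) had it. The other astrocyte markers and the choroid plexus markers did not. In knockdown library 2 Aldh1l1 was the lowest of its group and Slc1a2 the highest. Cldn5 stood at 0.591, 0.0976 and 0.207 CPM in knockdown libraries 1 to 3 and at 0.387, 0.0584 and 0.148 CPM in control libraries 1 to 3. The part of endothelial cells or astrocytes in the Slco1c1 values was not tested. Slco1a4, another organic anion carrier of brain capillaries, had 244, 192 and 79 counts in knockdown libraries 1 to 3 and 248, 24 and 289 counts in control libraries 1 to 3, and it was not called.

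The deiodinases differed in level and in the sequence before their start sites. Dio2 (13371; chromosome 12, 90724552 to 90738438, minus strand) encodes the type 2 enzyme, which makes triiodothyronine, and Dio3 (107585; chromosome 12, 110279068 to 110281097, plus strand) the type 3 enzyme, which removes it. Both proteins are selenoproteins: a TGA codon inside the reading frame is read as selenocysteine, the residue of the catalytic site. The annotation marks 1 such codon in Dio3 and 2 in Dio2, of which the one shown is the first. The coding sequence around that codon is shown because it is the mark of the family and the reason that genes of selenocysteine incorporation are followed further on. Letters are in lower case with the TGA codon in capitals, which is codon 130 of Dio2, at chr12:90729808-90729840 on the minus strand, and codon 170 of Dio3, at chr12:110279724-110279756 on the plus strand (GENCODE transcripts, GRCm38). Around it the 2 genes differ at several bases, and the longest run of identical bases in their coding sequences was 11.
Dio2: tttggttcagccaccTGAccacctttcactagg
Dio3: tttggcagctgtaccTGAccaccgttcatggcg

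Dio2 was at 3.24, 2.79 and 4.24 CPM in knockdown libraries 1 to 3, against 2.02, 2.72 and 0.719 CPM in control libraries 1 to 3. Every knockdown library was above every control library, but by little, since the lowest knockdown value was 1.02 times the highest control value. The mean was 3.42 ± 0.744 CPM in knockdown libraries and 1.82 ± 1.01 CPM in control libraries (SD, n = 3 each). The log2 fold change was 0.91 ± 0.41 (SE), and Dio2 was not called. It was 0.53 without control library 3, the library with the lowest Dio2 and the highest Slco1c1 of the 6. Of the cells known for this enzyme, astrocyte markers had a median log2 fold change of 0.57 over 8 genes, and the 4 tested markers of ependyma and tanycytes one of 0.31. Over the controls, the astrocyte markers Aqp4, Gjb6, Slc1a3 and S100b had the order of Dio2, and Gja1 too was lowest in control library 3. Gfap, Aldh1l1 and Slc1a2 were lowest in control library 1 instead. Over the knockdown libraries, Aqp4, Gjb6, Slc1a3 and S100b did not have the order of Dio2. The list of ependyma and tanycytes summed to 35.2 to 44.0 CPM in knockdown libraries and 30.2 to 31.2 CPM in control libraries, and the tanycyte regulator Rax was at 0 in 5 of 6 libraries. Rarres2, called higher, carried that sum, and Foxj1 had a log2 fold change of -0.09. Of the exon length of Rarres2, 33.6% overlaps Lrrc61 on the opposite strand, so its value is uncertain. The part of these cells in the Dio2 values was not tested.

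Dio3 was at or near the limit of detection. It had 0 counts in all 3 knockdown libraries, and 7, 0 and 0 counts in control libraries 1 to 3. A count of 0 allows up to 0.0167, 0.0195 and 0.0188 CPM in knockdown libraries 1 to 3, taking 3 counts as the limit. No fold change is given for it.

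The 250 bases before the RefSeq start sites of the 2 genes are shown because they set a gene that was detected in every library beside one that was not, in the same tissue. Capitals mark the palindrome TGACGTCA, known as the cAMP response element, and TATAAA, known as the TATA box. The Dio2 sequence is chr12:90739039-90739288 on the minus strand and the Dio3 sequence chr12:110278980-110279229 on the plus strand (RefSeq, GRCm38.p6). The RefSeq start lies 600 bases upstream of the GENCODE gene start given above for Dio2 and 162 bases downstream of it for Dio3.
Dio2: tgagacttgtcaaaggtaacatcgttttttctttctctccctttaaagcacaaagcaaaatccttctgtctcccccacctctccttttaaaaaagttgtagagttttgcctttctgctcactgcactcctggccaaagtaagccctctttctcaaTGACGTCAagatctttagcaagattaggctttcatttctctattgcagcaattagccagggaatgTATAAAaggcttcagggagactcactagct
Dio3: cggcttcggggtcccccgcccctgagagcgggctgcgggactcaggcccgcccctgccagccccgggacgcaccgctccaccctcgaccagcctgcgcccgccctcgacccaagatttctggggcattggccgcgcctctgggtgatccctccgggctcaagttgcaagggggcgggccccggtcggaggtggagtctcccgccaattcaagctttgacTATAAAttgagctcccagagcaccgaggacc

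The Dio2 stretch held 58.4% A or T and the Dio3 stretch 30.4%, where the median over 32851 RefSeq promoter windows was 47.6%. TGACGTCA, its own reverse complement, was found 95 bases before the Dio2 start and in 1.79% of the 32851 windows of 300 bases, which run to 50 bases after the start. TATAAA, searched on both strands, lay 30 bases before the Dio2 start and 31 bases before the Dio3 start, and 13.6% of windows held it. The receptor core motif AGGTCA, searched on both strands, was present in 16.3% of windows and, among the 6 windows of the 5 genes matched (Slco1c1, Dio2, Dio3, Thrb and Klf9), in 1 of Thrb, 184 bases before the start. A direct repeat of AGGTCA with 4 bases between, the best known arrangement for the thyroid hormone receptor, was found in 5 of the 32851 windows and in none of these 6. A match is a description of letters, and no binding was measured.

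Neither receptor gene was called. Thra (21833; chromosome 11, 98740638 to 98769006, plus strand) encodes the receptor alpha 1, the main form of the brain, and by alternative splicing the alpha 2 protein, which does not bind the hormone. The table gives 1 count per gene, so these forms cannot be separated. Its level was 291, 303 and 275 CPM in knockdown libraries 1 to 3, against 318, 315 and 293 CPM in control libraries 1 to 3. The ranges overlap, the log2 fold change was -0.09 ± 0.09 (SE), and its 95% interval ran between -0.28 and 0.09. With total counts in place of TMM the log2 fold change was 0.08, where the median of all tested genes was 0.18 in place of 0.01, so that Thra lay 0.11 below that median. Of the exon length of Thra, 5.70% overlaps Nr1d1 on the opposite strand, and reads there cannot be assigned where strand was not used in counting.

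Thrb (21834; chromosome 14, 17660261 to 18038090, plus strand), the receptor beta gene, was at 15.2, 14.5 and 13.0 CPM in knockdown libraries 1 to 3, against 16.6, 12.9 and 13.4 CPM in control libraries 1 to 3. The highest and the lowest value were both in controls, and the log2 fold change was -0.01 ± 0.14 (SE; 95% interval between -0.32 and 0.30), with a sign that changed with the scaling. Per exon length, Thra exceeded Thrb by 30.8, 33.4 and 34.0 times in knockdown libraries 1 to 3 and by 30.7, 39.1 and 35.0 times in control libraries 1 to 3. The longest run of bases that the coding sequences of the receptors share was 26.

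Crym (12971; chromosome 7, 120186380 to 120202111, minus strand) encodes mu-crystallin, a cytosolic protein that binds triiodothyronine. It had 30, 0 and 17 counts in knockdown libraries 1 to 3, against 0, 30 and 2 counts in control libraries 1 to 3. Each group held a library at 0 and a library at 30 counts, so a difference was not detectable. The log2 fold change of 0.40 ± 1.51 (SE) depends on how libraries at 0 are handled.

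Of the response genes Hr and Klf9, both direct targets of the receptors in brain, Hr was higher and Klf9 lower in every knockdown library than in every control library, and only Hr was called. Hr (15460; chromosome 14, 70552212 to 70573548, plus strand) encodes hairless, a nuclear corepressor that itself binds the thyroid hormone receptor. It was at 11.96, 11.36 and 10.42 CPM in knockdown libraries 1 to 3, against 7.76, 7.00 and 8.15 CPM in control libraries 1 to 3. The lowest knockdown value was 1.28 times the highest control value. The mean was 11.2 ± 0.776 CPM in knockdown libraries and 7.64 ± 0.586 CPM in control libraries (SD, n = 3 each), which is 1.47-fold and 0.56 ± 0.15 (SE) on the log2 scale. The call was lost without knockdown library 1, at 0.52, and without control library 2, at 0.50.

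Klf9 (16601; chromosome 19, 23141226 to 23168134, plus strand) encodes a Krüppel-like zinc finger factor that also responds to glucocorticoids. It was at 40.5, 37.3 and 39.2 CPM in knockdown libraries 1 to 3, against 46.9, 42.3 and 47.0 CPM in control libraries 1 to 3. All knockdown values were below all control values, with a mean of 39.0 ± 1.62 CPM in knockdown libraries and 45.4 ± 2.68 CPM in control libraries (SD, n = 3 each). The log2 fold change was -0.22 ± 0.10 (SE) and the gene was not called. With total counts it was -0.05, or 0.23 below the median of all genes.

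By the correlation of log2 CPM over the 6 libraries, among 11353 other named genes whose mean reached 2 CPM, the genes most like Hr were Cdkn2aipnl, Kank1 and Esco1 (Pearson r between 0.992 and 0.995), and 408 genes had an r above 0.9. For Dio2 they were Pisd, Zfp68 and Fam108c (0.983 to 0.991), for Klf9 Ppif, Ppifos and Uxt (0.985 for each), for Thra Enho, Inpp5f and Golga7 (0.987 to 0.991) and for Thrb Bag1, Efcab10 and Vkorc1 (0.977 to 0.980). Slco1c1 was nearest to Eef1d, Obsl1 and Asl (0.962 to 0.981) and Crym to Slc6a11, Rasa2 and Ak4 (0.983 to 0.985). All points share the same 6 libraries and their scaling, and the r of a gene as low as Crym follows a few counts. The highest of 11353 values over 6 points would be high by selection alone. They do not show that these genes vary together.

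The rest of the pathway was taken by role, in lists drawn up with earlier results of these data known. It held 67 further genes, of which 61 were tested. Of these, 12 were called higher, 12 lower and 37 did not pass (edgeR quasi-likelihood test, adjusted p under 0.05 over all 16766 genes), with a median log2 fold change of -0.03 where that of all tested genes was 0.01. The called genes were 39.3% of the pathway genes tested and 21.1% of all genes tested (8.48% higher and 12.6% lower), and the counts by role below stand beside the same background. Since results were known when the lists were made, nothing is read from the difference between these shares. Under total-count scaling the calls were 15 higher and 8 lower, a share of 65.2% higher where the TMM calls were equal in number in both directions. Over all tested genes that scaling raised the share of called genes that were higher to 74.0%, against 40.2% with TMM.

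**Figure D3:**
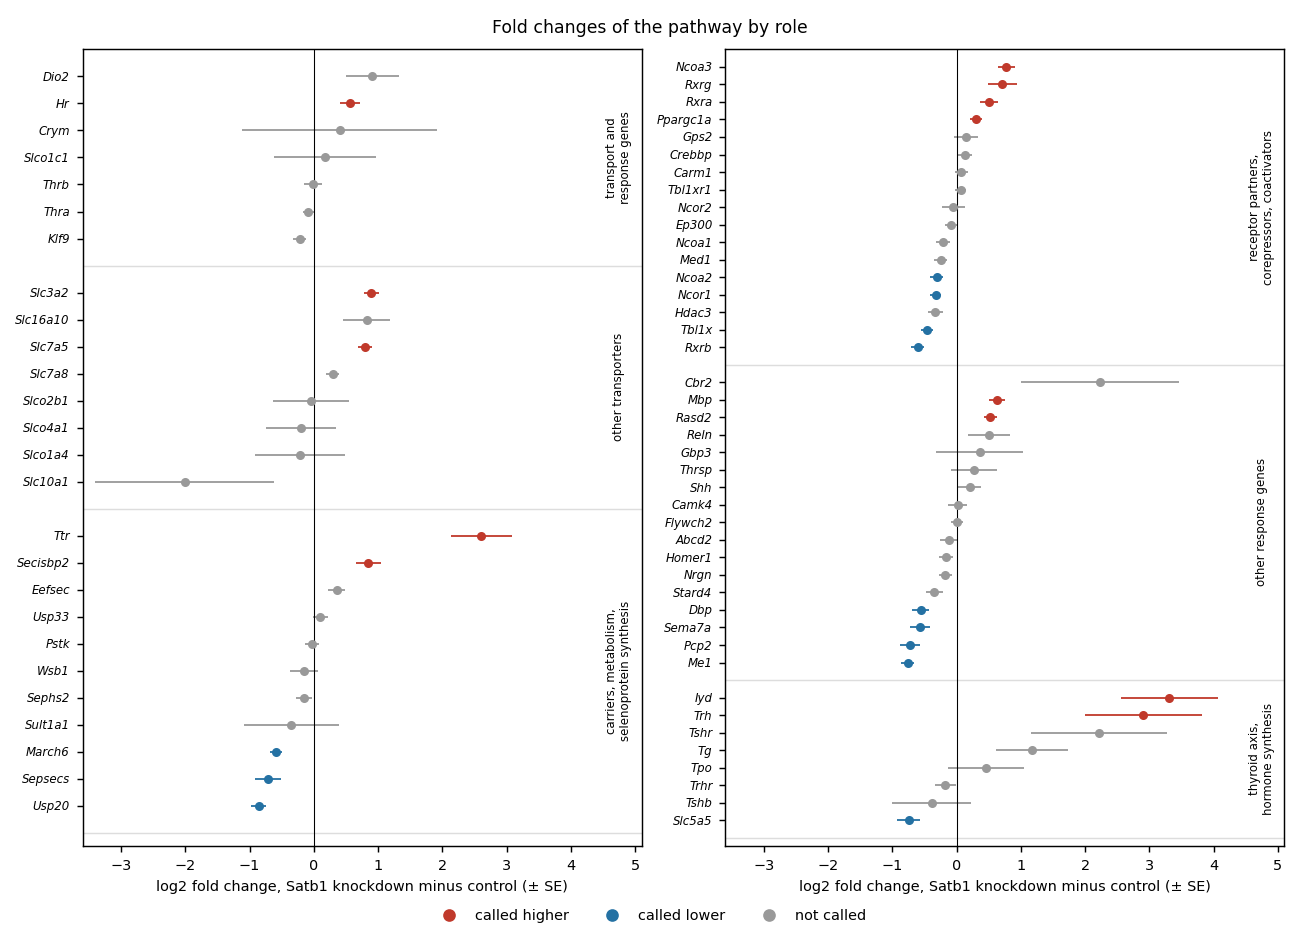
Log2 fold change (knockdown minus control) with its SE for the 7 tested transport and response genes and the 61 further pathway genes tested, grouped by role, with genes called higher in red, called lower in blue and not called in grey. Slc3a2 stands at 0.89 among the transporters, and the receptor partners and cofactors range between -0.61 and 0.77.

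Among 9 other transporters, 8 were tested and 2 rose, none fell and 6 did not pass, with a median log2 fold change of 0.12. Slc7a5 encodes LAT1, a carrier of large neutral amino acids that also takes thyroid hormone, and Slc3a2 its heavy chain. Slc7a5 was at 62.5, 62.8 and 74.0 CPM in knockdown libraries 1 to 3, against 36.0, 38.9 and 40.4 CPM in control libraries 1 to 3. It rose 1.73-fold, to 66.4 ± 6.55 CPM in knockdown libraries against 38.5 ± 2.28 CPM in control libraries (log2 fold change 0.79 ± 0.11, SE; adjusted p = 0.000592). Slc3a2 was at 61.3, 54.7 and 66.4 CPM in knockdown libraries 1 to 3, against 29.4, 36.4 and 32.5 CPM in control libraries 1 to 3. It rose 1.86-fold, to 60.8 ± 5.85 CPM in knockdown libraries against 32.7 ± 3.48 CPM in control libraries (log2 fold change 0.89 ± 0.12, SE; adjusted p = 0.000504). The groups did not overlap for either gene, and both calls were kept under all 14 alternatives tried. Slc16a10, which encodes MCT10, and Slc7a8, which encodes LAT2, were chosen after their values were seen: their groups did not overlap, with log2 fold changes of 0.82 ± 0.36 and 0.29 ± 0.11 (SE), and neither was called. Slc17a4 had 0 counts in every library.

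**Figure D4:**
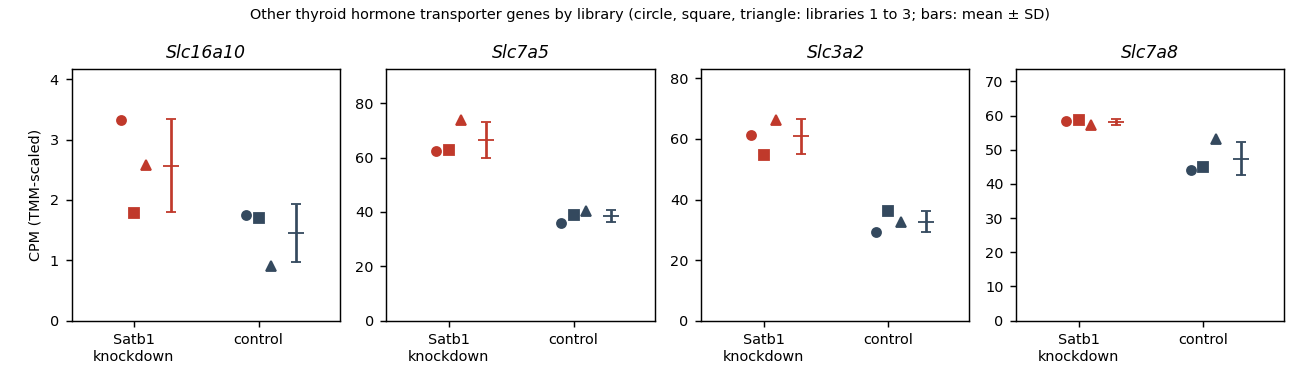
CPM by library of 4 further transporter genes, knockdown in red on the left and control in dark grey on the right of each panel; circle, square and triangle are libraries 1 to 3, and the bar is the mean ± SD. Slc7a5 lies between 62.5 and 74.0 CPM in knockdown libraries and between 36.0 and 40.4 CPM in control libraries.

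Of 15 genes of hormone carriage, metabolism and selenoprotein synthesis, 11 were tested, 2 rose, 3 fell and 6 did not pass. Ttr, the gene of transthyretin, the carrier of thyroxine made by the choroid plexus, had 652, 264 and 359 counts in knockdown libraries 1 to 3, against 88, 32 and 74 counts in control libraries 1 to 3. Its log2 fold change was 2.61 ± 0.47 (SE; edgeR, adjusted p = 0.00263). Besides Ttr, no marker of the choroid plexus was called: the list of 5 summed to 10.1, 5.31 and 9.34 CPM in knockdown libraries 1 to 3 and 5.63, 4.23 and 2.93 CPM in control libraries 1 to 3, and Folr1, which did not pass the filter, had 0, 19 and 25 counts in knockdown libraries 1 to 3 and 0, 1 and 0 counts in control libraries 1 to 3. Kl did not overlap between the groups, with 177, 111 and 86 counts in knockdown libraries 1 to 3 and 70, 24 and 31 counts in control libraries 1 to 3. Among all tested genes the groups did not overlap for 38.7%. The remaining markers Clic6 and Kcnj13 overlapped, with log2 fold changes of 0.48 ± 0.31 and 0.21 ± 1.14 (SE). The sum of the list includes Ttr itself. The part of that tissue in the Ttr values was not tested. Secisbp2, whose protein binds the RNA element that recodes the TGA codon, rose to 14.3 ± 1.13 CPM in knockdown libraries against 7.93 ± 2.28 CPM in control libraries (log2 fold change 0.85 ± 0.20, SE, edgeR adjusted p = 0.0103). Sepsecs, another gene of selenoprotein synthesis, chosen after its value was seen, fell to 4.29 ± 0.679 CPM in knockdown libraries against 7.04 ± 0.764 CPM in control libraries. Its log2 fold change was -0.71 ± 0.20 (SE, edgeR adjusted p = 0.0218). Eefsec, Sephs2 and Pstk were not called.

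Of 4 genes that act on the stability of the type 2 deiodinase protein, Usp20 and March6 fell, and the other two did not pass. Usp20, a deubiquitinase that acts on it, was at 37.8 ± 5.03 CPM in knockdown libraries and 68.7 ± 5.08 CPM in control libraries (log2 fold change -0.86 ± 0.12, SE; edgeR, adjusted p = 0.000581). March6, whose ubiquitin ligase marks the enzyme for degradation, was at 157 ± 6.29 CPM in knockdown libraries and 236 ± 9.60 CPM in control libraries (-0.59 ± 0.09, SE; adjusted p = 0.000813). The related genes Usp33 and Wsb1 stood at 0.10 ± 0.11 and -0.15 ± 0.22 (SE) and were not called. Dio1, the deiodinase of liver and kidney, had at most 3 counts in any library, and Serpina7 and Sult1b1 had 0 in all.

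Of 17 receptor partners, corepressors and coactivators, all tested, 4 rose, 4 fell and 9 did not pass, with a median log2 fold change of -0.05. The coactivator gene Ncoa3 rose (0.77 ± 0.13, SE; edgeR, adjusted p = 0.0018), to 61.5 ± 11.3 CPM in knockdown libraries against 36.0 ± 2.14 CPM in control libraries. The retinoid X receptor gene Rxrb fell (-0.61 ± 0.11; adjusted p = 0.00228), to 20.8 ± 0.938 CPM in knockdown libraries against 31.7 ± 0.407 CPM in control libraries. Tbl1x, a subunit of the corepressor complex, fell by 0.46 (adjusted p = 0.00607). Ncor1, the corepressor itself, fell by 0.33 (adjusted p = 0.0223), a call that did not hold with total-count scaling (-0.16), nor without knockdown library 1 (-0.29), control library 2 (-0.36) or control library 3 (-0.27). Scaled by total counts, the list held 5 higher and 2 lower calls, where all tested genes held 2770 and 972, against 1421 and 2115 with TMM. The other retinoid X receptor genes, chosen after their values were seen, had positive log2 fold changes of 0.50 ± 0.14 for Rxra and 0.71 ± 0.23 for Rxrg (SE) and were called. On leaving out knockdown library 1 or control library 1 or 3 only 1 gene of this list was called higher, without knockdown library 2, knockdown library 3 or control library 2 there were 2, and without knockdown library 1, control library 2 or control library 3 only 2 were called lower. Over all tested genes, leaving out single libraries gave 804 to 1356 higher and 1132 to 2054 lower, against 1421 and 2115 with all libraries.

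Of 17 other genes known to respond to thyroid hormone, mostly in brain, 2 rose, 4 fell and 11 did not pass, with a median log2 fold change of 0.002. Mbp, the myelin basic protein gene, rose to 132 ± 16.6 CPM in knockdown libraries against 85.7 ± 12.6 CPM in control libraries (log2 fold change 0.62 ± 0.13, SE; edgeR, adjusted p = 0.00456), in the same libraries in which oligodendrocyte markers, Mbp among them, were higher. The part of these cells in the Mbp values was not tested. Rasd2, a small GTPase gene, rose by 0.52 (adjusted p = 0.00382). Me1, the malic enzyme gene, fell to 82.0 ± 7.47 CPM in knockdown libraries against 139 ± 7.32 CPM in control libraries (-0.76 ± 0.10, SE; adjusted p = 0.000504). Pcp2 fell by 0.73 (adjusted p = 0.00573), but 51.5% of its exon length overlaps Pet100 on the opposite strand, so its value is uncertain. Nrgn, the neurogranin gene, stood at -0.18 ± 0.11 (SE) and was not called.

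Among 9 genes of the pituitary axis and of hormone synthesis in the thyroid, 8 were tested, 2 rose, 1 fell and 5 did not pass. Iyd, which recovers iodide from iodotyrosines, had 81, 218 and 196 counts in knockdown libraries 1 to 3, against 29, 12 and 8 counts in control libraries 1 to 3 (log2 fold change 3.31 ± 0.75, SE; edgeR, adjusted p = 0.00903). Trh, the thyrotropin-releasing hormone gene, had 69, 46 and 95 counts in knockdown libraries 1 to 3, against 4, 16 and 6 counts in control libraries 1 to 3 (2.91 ± 0.91, SE; adjusted p = 0.0381). Its call was lost with no low-count filter and on leaving out any library other than control library 2, with log2 fold changes of at least 2.55. With a minimum mean of 1 CPM Trh was not tested. Slc5a5, the iodide transporter gene, fell to 29.9 ± 9.12 CPM in knockdown libraries against 50.1 ± 3.71 CPM in control libraries (-0.75 ± 0.18, SE; adjusted p = 0.0114).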

How the data were processed

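Gene counts were measured in 3 Satb1 knockdown and 3 control libraries. The authors deposited whole-number counts per gene, 1 column per library. The submitters' processing notes list TopHat2 2.0.8 and mm10. No source used here gives the counting tool, or how it treated strand and shared reads. Groups and replicate numbers come from the sample titles.

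Genes were fitted with edgeR 4.0.16 (R 4.3.3) and its quasi-likelihood test, with TMM scaling, filterByExpr by group (minimum count 10, minimum total 15), no covariate, and Benjamini-Hochberg adjustment over 16766 genes at 0.05, 2-sided. The fit was also run on simulated counts, drawn as independent libraries from its own estimated dispersions, which cannot check those assumptions. SEs of log2 fold changes come from the F statistic. CPM used TMM factors. Levels per kb used exon lengths of GENCODE (GRCm38). Replicate libraries differed by a chi-square per gene of 58.5 to 156, so none was a copy.

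The 8 genes and the gene lists were chosen with earlier results of these data known. Named genes were Satb1, the 8 genes, up to 4 called genes per list with the smallest p (or the 1 with the smallest p), and the 3 most correlated genes of each of the 8. Other names were chosen after values were seen. Alternatives were other scalings (relative log expression, total counts), DESeq2 1.42.0, limma-voom (limma 3.58.1), a minimum mean of 1 CPM or no filter, robust dispersion, replicate number as block, coding length, and leaving out each library. One gene of the transporter list is not reported here and is in none of the list counts.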

Additional observations from a re-analysis of the deposited data

How the results depend on the processing

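Most values kept their direction and their side of the threshold. Of 96 values of the 8 genes over the alternatives, 81 did so, 2 lost a call (Hr without knockdown library 1 and without control library 2) and 13 changed sign, none of them called. The sign changes were in Thra with total counts (0.0764), in Thrb with relative log expression (0.0037), DESeq2 (0.0037), total counts (0.16), and a mean of at least 1 CPM (0.0362), and, leaving out single libraries, in Slco1c1 (-0.33 to 1.60), Thrb (-0.0793 to 0.11) and Crym (-0.37 to 3.65). Of 333 values of the other named genes, 317 did not change their call and 16 lost it. All of these genes but Satb1 were picked as called genes with the smallest p of their list. They could therefore lose a call but not gain one. Over all genes, total counts gave 2770 higher and 972 lower against 1421 and 2115, and leaving out single libraries gave 804 to 1356 higher and 1132 to 2054 lower. Of the 8 genes, 0 to 1 were then called higher, the 0 being without knockdown library 1 or control library 2, and of the other pathway genes 8 to 11 higher and 8 to 12 lower. With coding length 2 of the 8 genes changed places in the order of levels. Deviations of same-numbered libraries from their group means correlated at 0.0564, 0.0127 and 0.108. Those of libraries with different numbers correlated at -0.101 to 0.0480. Such small values cannot decide whether the numbers pair the libraries. With the replicate number as a block, 1924 genes were higher and 2789 lower, Hr was still the 1 gene of the 8 called, and 13 of the other pathway genes were higher and 13 lower. Depth limits Dio3 and Crym, with at most 7 and 30 counts in any library. The cause of these changes was not tested.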

Other observations

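Genes related to Klf9 and genes of another hormone that acts on it were followed beside the pathway. Of 14 other Krüppel-like factor genes, all tested, 3 rose, 1 fell and 10 did not pass. Called genes were 28.6% of these 14 and 21.1% of all tested genes (8.48% higher and 12.6% lower). Klf15, a factor induced by glucocorticoids, rose to 10.4 ± 0.899 CPM in knockdown libraries against 4.81 ± 1.61 CPM in control libraries (log2 fold change 1.11 ± 0.24, SE; edgeR, adjusted p = 0.00614). Klf3 rose by 0.71 (adjusted p = 0.0113), a call lost without knockdown library 1 (0.64). Klf14 had 149, 42 and 52 counts in knockdown libraries 1 to 3, against 0, 1 and 6 counts in control libraries 1 to 3. It was called (edgeR, adjusted p = 0.0127), a call lost without knockdown library 1 or control library 2. With a minimum mean of 1 CPM Klf14 was not tested. Klf6 fell to 43.3 ± 3.54 CPM in knockdown libraries against 61.0 ± 3.39 CPM in control libraries (-0.49 ± 0.10, SE; adjusted p = 0.00582).

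Of 12 genes known to respond to glucocorticoids, 2 rose, none fell and 10 did not pass. Called genes were 21.1% of all tested genes and 16.7% of these 12. With total-count scaling 4 were called higher, and without knockdown library 3, control library 1 or control library 2 there was 1. Over all tested genes, 2770 were called higher with total counts, against 1421 with TMM and all libraries. Without those libraries in turn, 1087, 1036 and 910 of all tested genes were called higher. Cdkn1a, also a target of p53, had a log2 fold change of 3.39 ± 0.17 (SE; edgeR, adjusted p = 4.31e-07). Sgk1, a kinase gene, rose by 0.64 (adjusted p = 0.0219), a call lost without knockdown library 3 (0.43), control library 1 (0.58) or control library 2 (0.56). Fkbp5, chosen after its value was seen as the response gene most used in the field, stood at 0.03 ± 0.12 (SE) and was not called.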
